A study of Drosophila melanogaster with 16 samples.

Results

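The comparison set ORC4 embryos against wild-type embryos of Drosophila melanogaster, both collected at 14 to 17 h of development, by RNA-seq of polyadenylated RNA from whole embryos. Its 9 libraries were taken from the 16 of the series by their titles and genotype labels: 4 are ORC4, which the labels give as a mutant of Lola-I, and 5 are wild type of the OregonR strain. ORC4 is here the name of a lola allele and not the replication gene Orc4. The labels do not say whether the ORC4 embryos were homozygous, how many embryos made a library, or whether libraries came from separate collections, so the p-values below measure the spread between these libraries, which may be technical. Of the other 7 libraries of the series, 4 are transheterozygous ORE50/ORC4 embryos of the same age and 3 are OregonR embryos aged 2 to 4 h.

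The gene lola encodes many protein isoforms that share an amino-terminal BTB domain and differ in the zinc fingers that contact DNA, and Lola-I is an isoform of this set. Lola is best known for its part in axon guidance. The series title ties Lola-I to opening promoters and to paused RNA polymerase II, a state in which the polymerase stops soon after initiation until kinases and elongation factors release it. An embryo of 14 to 17 h has formed its main organs: midgut cells begin to make digestive enzymes, the epidermis and trachea secrete cuticle, muscles are built and neurons make synapses.

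Levels are given as TPM, the abundance scaled to the listed length of the gene and to a fixed total per library. The listed length was the whole span of the gene with introns for 99.3% of matched genes, so reads from a nested or overlapping gene can be assigned to either gene. Genes whose span overlaps another gene are marked as overlapping. ORC4 libraries held between 27298377 and 28832013 estimated counts. Wild-type replicates 1, 2 and 3 held between 28717036 and 32521626, and replicates 5 and 6 held 10388386 and 10202584, so each result was also computed against wild-type replicates 1 to 3 alone. Defining markers of gut, neurons, glia, muscle, epidermis, trachea, blood cells, fat body, salivary gland, germ line and ring gland were counted in both genotypes, and no marker matched in the tables stood at 0 in a whole group. Summed marker TPM of ORC4 lay below that of wild type in every library for midgut and neurons, and above it for epidermis. Among the 5 neuron markers nSyb alone was called, and it was lower.

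Of 11431 genes tested, 1966 were lower and 1768 were higher in ORC4 than in wild type (edgeR quasi-likelihood test, Benjamini-Hochberg adjusted p under 0.05), which is 17.2% and 15.5% of the genes. The log2 fold change (ORC4 minus wild type) had a median of 0.00 over all genes. The difference was at least 2-fold for 752 lower and 411 higher genes. In 14.4% of tested genes all ORC4 libraries were below all wild-type ones, and in 13.4% all were above. Against wild-type replicates 1 to 3, 1554 of the lower genes (79.0%) and 1312 of the higher genes (74.2%) were called in the same direction and none in the opposite one; there, 14.9% of tested genes were lower and 15.6% higher. The count of higher genes was 1099 without ORC4 replicate 2. Shares of a gene list near 17.2% lower or 15.5% higher are at the level of all genes. Genes that overlap another made up 48.2% of all tested genes, 44.1% of the lower ones and 48.0% of the higher ones.

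**Figure D1:**
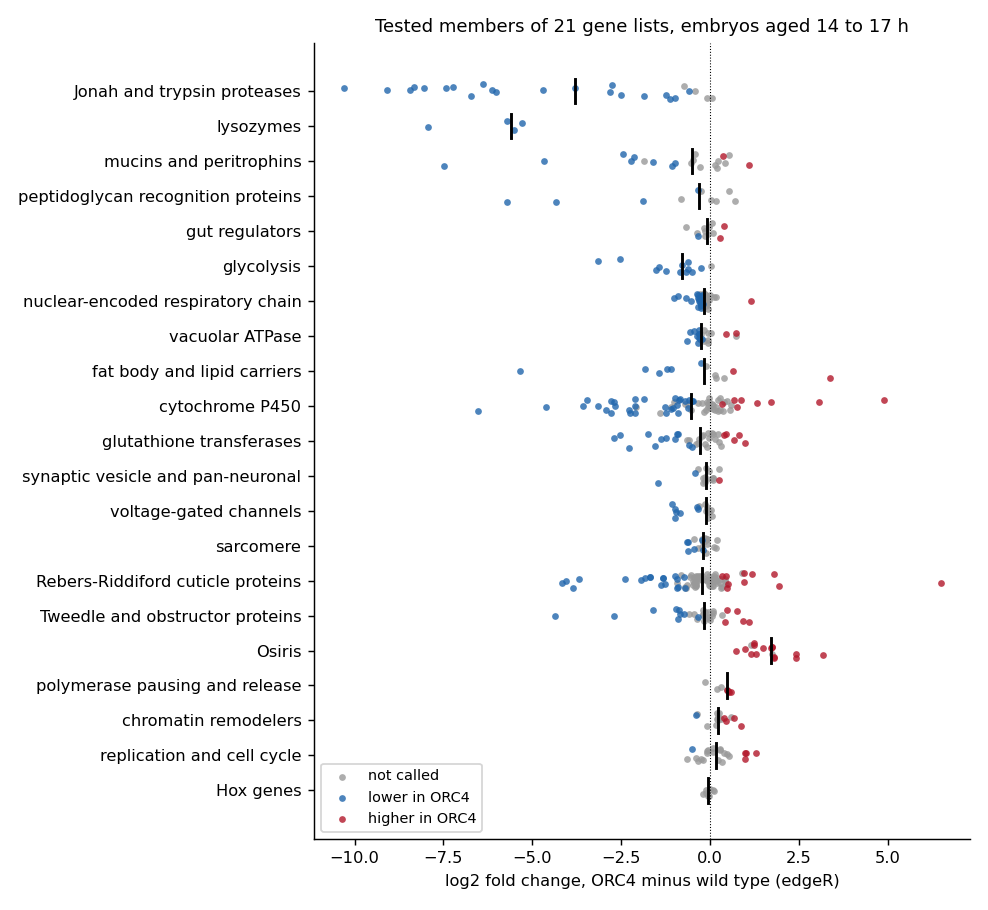
Each point is a tested member of the gene list named at the left, placed by its log2 fold change (ORC4 minus wild type, horizontal axis), with blue for genes called lower, red for genes called higher and grey for genes not called; the black bar is the list's median, and genes with no count in a whole group are drawn at the bound given by 3 counts per library. Most proteases and all lysozymes lie left of 0, as do all glycolytic members but ERR; Osiris genes lie right of it, and cytochrome P450 and cuticle proteins spread to both sides.

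The lola gene itself (FBgn0283521, 2R:10481894-10543291, minus strand) gave 44.8, 61.3, 39.2 and 53.7 TPM in ORC4 libraries, against 39.01, 42.7, 36.7, 46.97 and 45.5 TPM in wild type. The groups overlapped, and the log2 fold change of 0.17 (SE 0.12) did not pass the test (edgeR adjusted p = 0.3098). The table pools all lola isoforms and the spans nested within the gene, so this value does not measure Lola-I. Among other BTB proteins, 2 of 13 were lower and 1 was higher. The gene fru, the sex-determination and neuronal factor fruitless, gave 0.1602, 0.141, 0.171 and 0.0833 TPM in ORC4 libraries, against 0.4199, 0.269, 0.441, 0.445 and 0.437 TPM in wild type, log2 fold change -1.59. The tramtrack gene ttk, a repressor of neural fate, was at 11.4, 12.02, 10.5 and 16.3 TPM in ORC4 libraries, against 20.2, 22.2, 17.4, 16.4 and 17.3 TPM in wild type (-0.64), with ORC4 replicate 4 just below the lowest wild-type library. The gene lolal, whose product is little more than a BTB domain, rose (0.50) with 128, 158, 109 and 176 TPM in ORC4 libraries, against 99.7, 105, 82.8, 96.1 and 97.5 TPM in wild type.

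Most digestive proteases of the midgut fell. The Jonah and trypsin families are secreted serine proteases that digest dietary protein. Of 25 members tested, of 27 matched, 21 were lower and none was higher, against 17.2% lower among all genes. The median log2 fold change was -3.80. Against wild-type replicates 1 to 3, 18 were lower. Summed over the family, TPM was 988, 793, 1078 and 525 in the ORC4 libraries, against 6235, 2311, 4106, 3642 and 4295 in wild type. Wild-type replicate 2 was the lowest of its group and ORC4 replicate 4 the lowest of its own, and the groups did not overlap. In RNA from whole embryos, fewer cells of a type and less RNA per cell cannot be told apart.

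Within the family the size of the fall differed by orders of magnitude. Jon99Fi (FBgn0039778, 3R:30488963-30489895) was at 0, 0.444, 0.661 and 0 TPM in ORC4 libraries, against 672, 158, 335, 260.3 and 379.9 TPM in wild type, log2 fold change -10.30 (SE 0.63, edgeR adjusted p = 6.74e-08). Jon25Bii was at 0.336, 0.367, 0.2303 and 0.124 TPM in ORC4 libraries, against 254, 81.4, 144, 118 and 152 TPM in wild type, log2 fold change -9.10. Both were close to nothing in all 4 ORC4 libraries and above 80 TPM in all 5 wild-type libraries. Jon99Fii (-8.43), Jon25Bi (-8.05) and deltaTry (-8.32, overlapping CG13202) were the other leading members by log2 fold change. Jon99Fi and Jon99Fii are near-identical neighbours, as are deltaTry and gammaTry, and the counts of each pair were fractional in most libraries, so the division within a pair is uncertain. Other members kept much of their level: Jon65Aiv was at 303, 240.5, 342 and 117 TPM in ORC4 libraries, against 745, 388, 606, 484 and 616 TPM in wild type, log2 fold change -1.23 (SE 0.30). Jon65Aiii (221, 194, 257 and 193 TPM in ORC4 libraries, against 389, 194, 282, 233 and 278 TPM in wild type) and lambdaTry (114, 90.9, 123 and 69.5 TPM in ORC4 libraries, against 97.2, 105, 111, 90.3 and 103 TPM in wild type) did not pass the test, and their groups overlapped. Jon99Cii, epsilonTry, alphaTry, Jon65Aiv, Jon65Aiii and lambdaTry, which the plot of digestive genes also shows, were chosen after their values were seen to span this range.

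Lysozymes, which digest bacterial walls and in flies are made largely by the gut, were at or near 0 in ORC4. All 4 tested of 6 matched members fell, and all 4 overlap mwh, so their reads can be shared with that gene and with each other. LysD was at 1.105, 0, 1.88 and 0 TPM in ORC4 libraries, against 184, 126, 208, 252 and 215 TPM in wild type, log2 fold change -7.92 (SE 0.53, edgeR adjusted p = 2.04e-06). LysB had no count in any ORC4 library, against 30.1, 17.1, 28.5, 20.5 and 39.97 TPM in wild type, at least 45.6-fold lower by a floor of 3 counts per library. With members at that floor, the list's median log2 fold change was -5.61, and -8.71 by the fit. Summed lysozyme TPM was 1.83, 0.466, 5.03 and 1.098 in ORC4 libraries and 289.8, 191, 326, 344 and 302 in wild type.

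The lining and immune surface of the gut moved in part. Of 20 tested mucins and peritrophins, which build the mucus and the peritrophic matrix, 8 were lower and 2 higher. Peritrophin-15a was at 6.01, 2.55, 3.43 and 1.84 TPM in ORC4 libraries, against 195, 41.1, 72.6, 59.3 and 61.2 TPM in wild type, log2 fold change -4.66 (SE 0.56), with the highest ORC4 library below the lowest wild-type one. Muc96D, nested in Fur1, had no count in ORC4 and 50.3, 1.87, 8.57, 5.68 and 17.3 TPM in wild type, at least 180.3-fold lower. Muc14A rose (1.11). Among 10 tested peptidoglycan recognition proteins, which sense or degrade bacterial wall fragments, 4 were lower and none higher. The shares among all genes were 17.2% lower and 15.5% higher. PGRP-SC2, an amidase, was at 0.853, 0.777, 1.32 and 0.943 TPM in ORC4 libraries, against 29.2, 8.904, 17.8, 20.1 and 20.1 TPM in wild type (-4.33). PGRP-LF (overlapping UGP) was at 3.69, 3.33, 3.46 and 3.402 TPM in ORC4 libraries, against 11.9, 11.6, 14.98, 13.1 and 10.4 TPM in wild type (-1.89). The receptor PGRP-LC fell by less (-0.33).

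Maltases and amylases, which digest starch and sugars, did not follow the proteases. Of 12 tested, 4 were higher and 1 was lower. The lower one, Mal-B2, overlaps Pde1c and had no count in ORC4 and 0.0726, 1.26, 0.737, 0.795 and 1.31 TPM in wild type; it was named after its value was seen. Amy-p, an amylase, was at 6.16, 4.81, 8.71 and 3.28 TPM in ORC4 libraries, against 1.6004, 2.22, 2.42, 1.95 and 2.74 TPM in wild type, log2 fold change 1.35. Its counts were fractional in all 9 libraries, and it has a near-identical copy, Amy-d. Mal-A5 rose as well (0.61).

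The factors that specify the gut were present in both genotypes. Of 12 gut regulators, 2 were higher and 1 was lower. The lower count was 3 against wild-type replicates 1 to 3 and 2 without ORC4 replicate 4 or wild-type replicate 5. The endoderm GATA factor srp (overlapping lncRNA:CR44133) was at 11.3, 11.3, 11.8 and 12.3 TPM in ORC4 libraries, against 8.898, 9.45, 8.64, 7.25 and 7.97 TPM in wild type, log2 fold change 0.41 (SE 0.08). GATAe, the GATA factor that keeps midgut cells differentiated, was at 23.8, 23.7, 24.4 and 29.6 TPM in ORC4 libraries, against 21.5, 20.5, 19.8, 17.6 and 19.4 TPM in wild type, log2 fold change 0.29 (SE 0.07). In both genes all ORC4 libraries lay above all wild-type libraries. The genes used as midgut markers thus split, with alphaTry, betaTry and Jon25Bi lower and GATAe and srp higher. In RNA from whole embryos, the tissue that made the GATAe and srp RNA is not resolved. The hindgut and posterior factor cad was lower (-0.33).

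**Figure D2:**
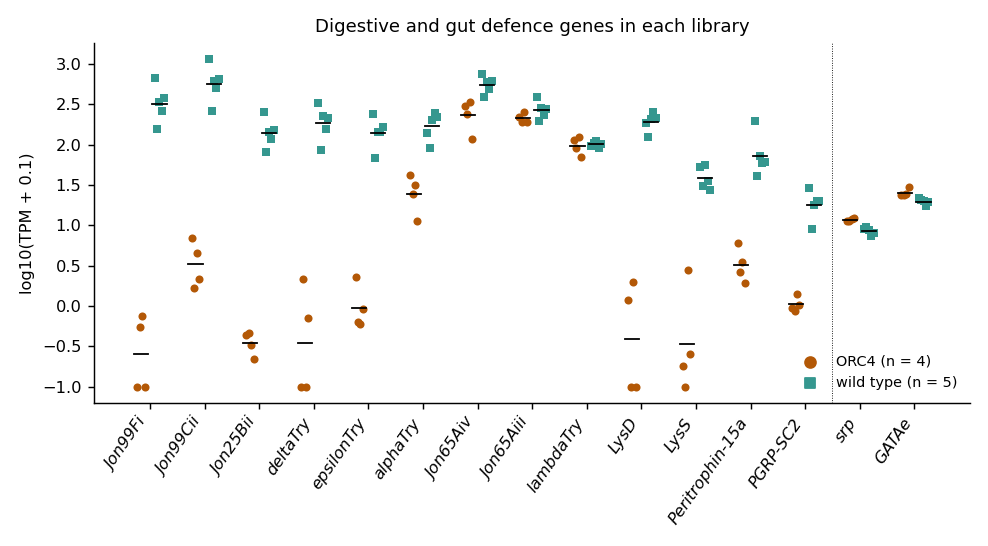
Each point is a library (orange circles ORC4, n = 4; green squares wild type, n = 5) at its log10(TPM + 0.1) for the gene named below, and short bars are group means of the plotted values; the dotted line separates the enzymes and defence genes from the regulators srp and GATAe. The loss ranges from over 2 log10 units for Jon99Fi to no separation of the groups for lambdaTry, while both regulators lie slightly higher in ORC4.

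Glycolysis, the pathway from glucose to pyruvate, fell across nearly all of its steps. Of 13 list members, 12 were lower and none higher, against 17.2% lower among all genes, and the 12 were lower against wild-type replicates 1 to 3 too. Summed TPM was 1589, 1539, 1729 and 1549 in ORC4 libraries and 4137, 3437, 3740.2, 3725 and 3831 in wild type. The highest ORC4 sum lay below 3437, the lowest wild-type sum.

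The fall was greatest for Tpi and Gapdh2. Triose phosphate isomerase, Tpi (FBgn0086355, 3R:30132981-30134599, no overlapping gene), was at 36.3, 36.04, 36.8 and 31.8 TPM in ORC4 libraries, against 315, 267, 286, 305 and 319 TPM in wild type, log2 fold change -3.14 (SE 0.14, edgeR adjusted p = 4.12e-09). The glyceraldehyde-3-phosphate dehydrogenases followed, with Gapdh2 at 228, 189.5, 232 and 173 TPM in ORC4 libraries, against 1297, 1078, 1162, 1071 and 1086 TPM in wild type (-2.53). Gapdh1 was at 222, 217, 255 and 226 TPM in ORC4 libraries, against 684, 509.9, 576, 589 and 619 TPM in wild type (-1.44). Pyruvate kinase, PyK, was at 36.2, 35.7, 40.5 and 28.4 TPM in ORC4 libraries, against 116, 85.5, 97.4, 90.9 and 97.6 TPM in wild type, log2 fold change -1.53. In these 4 genes the groups stood well apart, with ORC4 replicate 4 the lowest library for all but Gapdh1. The remaining members, named beyond the rule for leading genes to cover the whole pathway, fell by less: Pfk (-1.23), Pgi (-0.83), Eno (-0.78, overlapping), Ald1 (-0.67, overlapping), Pglym78 (-0.63, overlapping), Hex-A (-0.61), Ldh (-0.49) and Pgk (-0.24, overlapping), whose adjusted p rose above 0.05 without ORC4 replicate 1, 2 or 4 or wild-type replicate 3. The nuclear receptor ERR, known in flies as an activator of glycolytic genes in mid-embryogenesis, did not pass the test, with 29.3, 26.5, 32.3 and 29.1 TPM in ORC4 libraries, against 27.4, 27.9, 29.1, 25.8 and 28.1 TPM in wild type (0.02, SE 0.11).

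**Figure D3:**
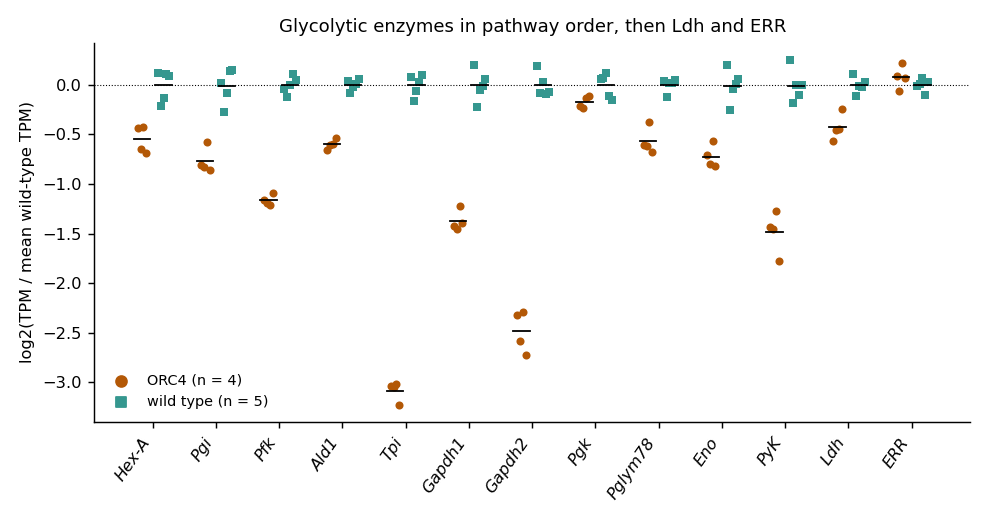
Points are libraries (orange circles ORC4, green squares wild type) at log2 of TPM over the mean wild-type TPM of the gene, so 0 is the wild-type mean; short bars are group means, and genes run from hexokinase (Hex-A) to pyruvate kinase (PyK), then Ldh and ERR. Tpi and Gapdh2 are more than 2 log2 units below wild type in each ORC4 library, and ERR lies at the wild-type level.

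Other energy genes fell by smaller amounts. For comparison, 17.2% of all tested genes were lower and 15.5% higher. Of 61 tested nuclear-encoded subunits of the respiratory chain, 19 were lower and 1 higher, with a median of -0.18; 8 of the 19 remained under an adjusted p of 0.01. Cytochrome c, Cyt-c-p, was at 285, 239, 297 and 224 TPM in ORC4 libraries, against 566, 433, 497, 511 and 523 TPM in wild type (-1.01). COX5B, a subunit of cytochrome c oxidase, was at 165, 149, 160.1 and 157 TPM in ORC4 libraries, against 299, 293, 309, 243 and 254 TPM in wild type (-0.89). The complex I subunit ND-13B fell by less (-0.67). The RNAs of the mitochondrial genome did not fall with them: 2 of 12 tested were higher and 1 was lower, and 5 were higher against wild-type replicates 1 to 3. Among them were mt:ATPase6 (0.67, overlapping mt:ATPase8) and mt:ND3 (0.61). Subunits of the vacuolar proton pump were lower for 11 of 22 tested and higher for 2, led by Vha68-2 (-0.65) and Vha36-1 (-0.55) on the lower side and VhaM9.7-a (0.74) and VhaM9.7-c (0.46, overlapping CG18675) on the higher. That count of 11 was 5 against wild-type replicates 1 to 3, and leaving out ORC4 replicate 2 or 4, or wild-type replicate 3, 5 or 6, gave 5 to 7. The respiratory count was 12 without ORC4 replicate 2 and 12 without replicate 4.

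Genes of fat storage and the fat body, the insect counterpart of liver and fat, fell for 6 of 12 tested and rose for 2. The shares among all genes were 17.2% and 15.5%. Neural Lazarillo, NLaz, a lipocalin that carries lipids and damps insulin signalling, was at 0.218, 0.428, 0.134 and 0.192 TPM in ORC4 libraries, against 8.895, 8.97, 8.76, 9.55 and 12.9 TPM in wild type, log2 fold change -5.35 (SE 0.41, edgeR adjusted p = 5.62e-07), the widest gap of the list. Fatty acid synthase, FASN1, was at 39.2, 45.02, 47.7 and 26.4 TPM in ORC4 libraries, against 120.2, 65.3, 113, 109 and 104 TPM in wild type (-1.43). The larval serum protein gene Lsp1gamma was at 6.542, 9.697, 10.5 and 9.37 TPM in ORC4 libraries, against 25.9, 28.8, 22.9, 43.5 and 32.3 TPM in wild type (-1.83). Perilipin 1, Lsd-1 (overlapping CG10214), which coats lipid droplets, fell as well (-1.19). The lipid carrier precursor apolpp, a defining fat body transcript that overlaps Zyx, did not pass the test, with 259, 305, 241 and 444 TPM in ORC4 libraries, against 318, 289, 243, 244 and 239.9 TPM in wild type.

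Enzymes of detoxification changed in both directions and by large factors. Of 69 tested cytochrome P450 genes, 30 were lower and 8 higher, against 17.2% and 15.5% of all genes. Cyp6w1 was at 0.168, 0.0735, 0.138 and 0.0743 TPM in ORC4 libraries, against 15.1, 6.56, 14.2, 7.28 and 10.3 TPM in wild type, log2 fold change -6.53 (SE 0.36). Cyp12e1 was at 0.589, 0.495, 0.559 and 0.501 TPM in ORC4 libraries, against 13.01, 13.6, 14.6, 11.9 and 9.97 TPM in wild type (-4.60). Cyp6a14 fell to 0.548, 0.885, 0.917 and 0.328 TPM in ORC4 libraries, against 6.86, 5.66, 8.24, 7.04 and 8.05 TPM in wild type (-3.47). In the other direction Cyp9c1 (overlapping CG13594) was at 68.7, 63.3, 75.1 and 66.1 TPM in ORC4 libraries, against 2.38, 2.18, 2.16, 3.62 and 0.639 TPM in wild type, log2 fold change 4.89 (SE 0.25, edgeR adjusted p = 1.30e-08). For all 4 genes the groups were far apart.

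Glutathione transferases, which conjugate glutathione to toxins, were lower for 12 and higher for 5 of 34 tested. GstO3, of the omega class that also serves eye pigment synthesis in flies, was at 8.47, 9.75, 10.7 and 12.4 TPM in ORC4 libraries, against 68.5, 71.3, 70.5, 54.5 and 53.8 TPM in wild type (-2.69). GstE11 was at 6.83, 7.74, 5.65 and 12.4 TPM in ORC4 libraries, against 43.4, 46.2, 47.6, 42.2 and 45.002 TPM in wild type (-2.54). GstT1 (-1.53) and GstD5 (-1.748) fell too, GstD5 with groups that overlapped. Leaving out any single library but wild-type replicate 3 brought the 5 higher calls to 2 or 3. Xanthine dehydrogenase, ry (rosy), the purine and pteridine enzyme highly expressed in Malpighian tubules, went the other way at 50.9, 46.02, 53.2 and 48.8 TPM in ORC4 libraries, against 14.3, 15.7, 15.5, 14.2 and 13.5 TPM in wild type, log2 fold change 1.70 (SE 0.09, edgeR adjusted p = 1.49e-08). The other Malpighian tubule members were lower for 3 of 4 tested, among them the chloride channel ClC-a (-0.58) and the factor tio (-0.27, overlapping lncRNA:CR33987).

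In the lists of nervous system genes, a few genes of excitation and release fell while most pan-neuronal genes did not pass the test. The RNA came from whole embryos, so the tissue of these falls is not resolved. Of 16 synaptic and pan-neuronal genes, 2 were lower and 1 was higher with all libraries, and 5 were lower and none higher against wild-type replicates 1 to 3. Neuronal synaptobrevin, nSyb, the vesicle SNARE of transmitter release, was at 38.5, 33.1, 36.3 and 33.7 TPM in ORC4 libraries, against 99.6, 86.7, 90.1, 91.9 and 96.8 TPM in wild type, log2 fold change -1.46 (SE 0.10, edgeR adjusted p = 1.42e-07), with no overlap between groups and no overlapping gene. The release factor unc-13 (overlapping asRNA:CR44029) fell by less (-0.42). The neuronal markers brp, elav and Syt1 did not pass. The gene brp, the active zone scaffold, gave 23.3, 21.8, 23.9 and 23.8 TPM in ORC4 libraries, against 23.5, 22.2, 21.5, 20.6 and 20.8 TPM in wild type (0.03). The gene elav, the pan-neuronal RNA-binding protein, gave -0.34 (edgeR adjusted p = 0.0659) and passed against wild-type replicates 1 to 3 (-0.44, adjusted p = 0.0408) and without wild-type replicate 6 (-0.39, adjusted p = 0.0449).

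Among 18 voltage-gated channels, 7 were lower and none was higher, against 17.2% and 15.5% of all genes. The calcium channel subunit gene Ca-alpha1D (overlapping asRNA:CR43806) was at 7.32, 7.25, 7.24 and 7.77 TPM in ORC4 libraries, against 16.1, 15.2, 14.96, 13.7 and 14.3 TPM in wild type (-1.07, SE 0.06). The synaptic calcium channel cac, cacophony, was at 4.54, 4.54, 4.98 and 4.49 TPM in ORC4 libraries, against 9.61, 9.01, 8.86, 7.89 and 8.14 TPM in wild type (-0.97, SE 0.10). The potassium channels sei (-0.97, overlapping gammaSnap1) and Elk (-0.97, overlapping PPO1) of the ether-a-go-go family fell by a like amount. The sodium channel para was at 12.8, 11.5, 13.4 and 10.3 TPM in ORC4 libraries, against 12.97, 11.9, 12.8, 9.21 and 9.04 TPM in wild type and did not pass (0.04, SE 0.17). Para and brp were named after their values were seen, as landmarks of the list.

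**Figure D4:**
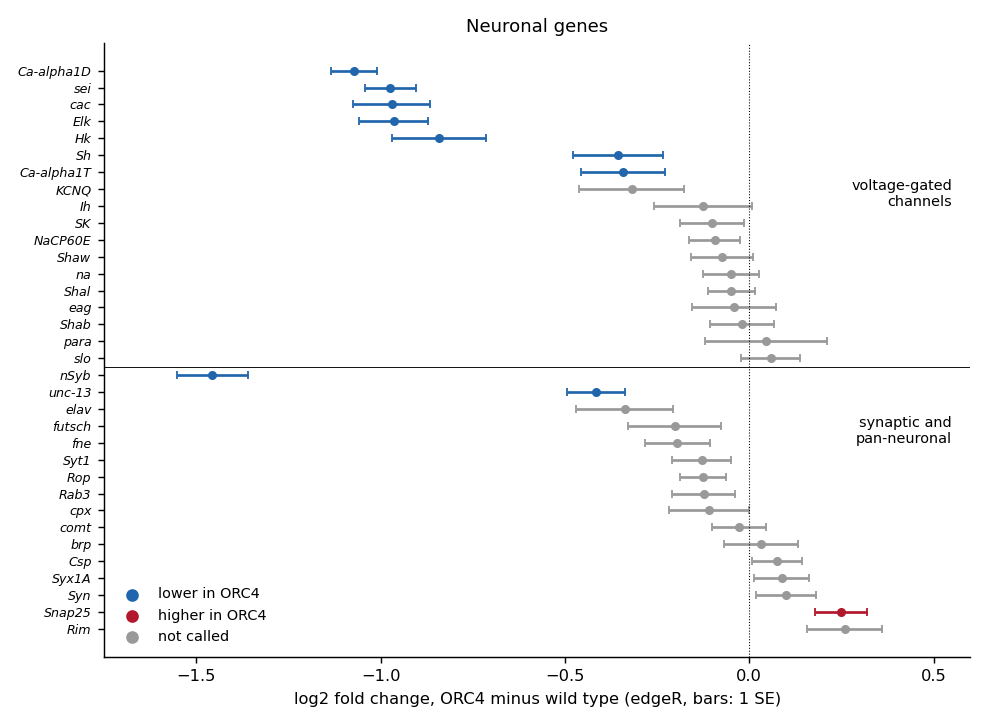
Log2 fold changes (ORC4 minus wild type, horizontal axis) with bars of 1 SE for 18 voltage-gated channels above the line and 16 synaptic and pan-neuronal genes below it; blue genes are lower in ORC4, red higher, grey not called. nSyb and 5 channels from Ca-alpha1D to Hk stand below the rest, which lie closer to 0.

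Some genes of transmitters, receptors and peptides were lower. Tryptophan hydroxylase, Trhn (overlapping CG13912), of serotonin synthesis, was at 4.77, 3.31, 4.76 and 3.88 TPM in ORC4 libraries, against 7.59, 7.76, 7.92, 7.58 and 7.11 TPM in wild type (-0.92). Vmat, the vesicular monoamine transporter (overlapping CG13330), fell by less (-0.43). In all, 3 of 11 transmitter genes were lower and none higher, against 17.2% and 15.5% of all genes. Of 10 nicotinic receptor subunits 3 were lower, with nAChRalpha7 at 3.78, 3.66, 4.05 and 3.52 TPM in ORC4 libraries, against 7.72, 6.77, 7.37, 7.34 and 7.69 TPM in wild type (-1.04). The subunit nAChRalpha4 fell by less (-0.26). Of 29 tested neuropeptide genes 5 were lower and none higher, the same share as the 17.2% lower among all genes, and 8 were lower without ORC4 replicate 3. Nplp4, a small secreted peptide precursor, was at 0.169, 0, 0.174 and 0 TPM in ORC4 libraries, against 208, 32.1, 65.9, 20.7 and 41.02 TPM in wild type, a ratio of wild type to ORC4 of 998 (95% counting interval 276 to 8245). The precursor sNPF was at 0.454, 0.391, 0.541 and 0.401 TPM in ORC4 libraries, against 1.2997, 0.826, 1.05, 1.03 and 1.15 TPM in wild type (-1.32). The diuretic hormone Dh44 (overlapping Fst) was lower too (-0.97).

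Axon guidance genes, the class lola is best known in, were higher for 5 and lower for 1 of 19, by small amounts. Among all genes 15.5% were higher and 17.2% lower. The cell adhesion gene Fas3 (overlapping Acp36DE) was at 16.6, 17.53, 16.4 and 23.3 TPM in ORC4 libraries, against 13.96, 14.6, 12.3, 10.5 and 10.6 TPM in wild type (0.51). The secreted semaphorin Sema2a (0.50) and the plexin PlexB (0.32, overlapping asRNA:CR45124) were higher too. Of 12 neural precursor factors 3 were lower, with dpn (-0.67, overlapping asRNA:CR44275) and sna (-0.46) among them. Of 12 glial genes 3 were lower and 1 higher, and 1 was lower without ORC4 replicate 2 or 4; Mdr65, a transporter of the blood-brain barrier, was at 31.6, 28.8, 33.6 and 25.4 TPM in ORC4 libraries, against 40.2, 40.96, 44.6, 45.9 and 44.2 TPM in wild type (-0.59). The glial markers repo, moody, loco and wrapper did not pass the test.

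Cuticle and its modifiers gave no common direction. Of 83 tested Rebers-Riddiford cuticle proteins, which bind chitin, 19 were lower and 10 higher, and of 31 Tweedle and obstructor proteins 9 were lower and 5 higher. Among all genes 17.2% were lower and 15.5% higher. Cpr67Fa1 rose to 1138, 792, 1234 and 673 TPM in ORC4 libraries, against 303, 278, 318, 139.6 and 148 TPM in wild type (1.96). Its counts were fractional in all libraries, and its near-identical neighbour Cpr67Fa2 was lower (-1.25). Cpr47Eb was at 7.81, 7.98, 12.4 and 9.87 TPM in ORC4 libraries, against 34.5, 28.7, 30.02, 41.6 and 27.7 TPM in wild type (-1.83). Cpr67B (-1.69) and Cpr49Ad (-1.67) fell by a like amount. The Tweedle gene TwdlF was at 2181, 3005, 1543 and 3990.2 TPM in ORC4 libraries, against 1481, 1488, 909.9, 1107 and 968 TPM in wild type (1.10). TwdlG fell, at 150.3, 142, 137 and 181 TPM in ORC4 libraries, against 331, 339, 277, 245 and 234 TPM in wild type (-0.96). TwdlK (-1.59) and TwdlO (-2.71) were lower too, TwdlO with groups that overlapped.

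Pigment and hardening genes included large falls. yellow-h, of the yellow family, was at 4.42, 4.35, 4.23 and 5.85 TPM in ORC4 libraries, against 60.9, 59.3, 54.9, 48.2 and 57.04 TPM in wild type, log2 fold change -3.64 (SE 0.13, edgeR adjusted p = 6.67e-10). The related gene yellow-c was at 9.995, 6.24, 11.4 and 7.77 TPM in ORC4 libraries, against 41.4, 45.2, 45.5, 43.8 and 45.8 TPM in wild type (-2.38). The GTP cyclohydrolase gene Pu, of pteridine and catecholamine cofactor synthesis, was at 5.65, 5.15, 6.404 and 3.63 TPM in ORC4 libraries, against 12.9, 11.6, 12.7, 13.97 and 13.9 TPM in wild type (-1.38). All 3 overlap another gene, asRNA:CR46065, CIAPIN1 and CG4286 in that order. The other members did not follow: of 17 tested, 3 were lower and 2 higher, and neither higher call held without ORC4 replicate 2, wild-type replicate 1 or wild-type replicate 3. Chitin genes were higher for 7 and lower for 4 of 24, against 15.5% and 17.2% of all genes. Among the higher ones knk (overlapping asRNA:CR46038), needed for ordered chitin, was at 25.3, 33.6, 22.9 and 43.3 TPM in ORC4 libraries, against 15.5, 14.04, 12.7, 14.4 and 13.7 TPM in wild type (1.08). The chitinase Cht9 (-1.49, overlapping asRNA:CR44703) and the growth factor Idgf2 (-0.76, overlapping CG5888) were lower. In the apical matrix list of zona pellucida proteins 3 of 12 were higher, 1 against wild-type replicates 1 to 3, and 6 without ORC4 replicate 3. The gene cyr (overlapping CG10958) was at 3.69, 4.03, 3.601 and 5.45 TPM in ORC4 libraries, against 3.14, 3.34, 2.35, 2.803 and 2.14 TPM in wild type (0.53).

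Osiris genes, a clustered family of insect membrane proteins made by cuticle-secreting cells and trachea, were higher as a set but unevenly between libraries. Of 17 tested of 23 matched, 15 were higher and none lower, against 15.5% higher among all genes, with a median log2 fold change of 1.73. Against wild-type replicates 1 to 3, 6 were higher, and the count was 8 without ORC4 replicate 2 and 5 without ORC4 replicate 4. Osi6 was at 745, 2131, 188 and 3258 TPM in ORC4 libraries, against 337, 528, 337, 76.8 and 129 TPM in wild type (2.42, SE 0.74). Osi7 was at 619, 1665, 159.7 and 2452 TPM in ORC4 libraries, against 266, 399, 251, 65.9 and 108 TPM in wild type (2.42, SE 0.71). ORC4 replicates 1, 2 and 4 lay above all wild-type libraries in both genes, with 2 and 4 far above, and replicate 3 lay within them. Neither gene passed without ORC4 replicate 2 (adjusted p = 0.0659 and 0.0562) or without ORC4 replicate 4 (adjusted p = 0.0885 and 0.0719), and Osi6 did not pass without wild-type replicate 6 (adjusted p = 0.0529).

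The ORC4 libraries differed among themselves in other groups too. Summed Osiris TPM was 4382, 8152, 2836 and 12159 in ORC4 replicates 1 to 4, and 2745, 3414, 2053, 1959.8 and 1759 in the wild-type libraries. Within ORC4, summed Rebers-Riddiford TPM ran in the opposite order, with 68223, 52859, 77357 and 40796. Wild type did not show that order, at 71192, 66966, 75892, 59714 and 62978 TPM, with replicates 5 and 6 lowest for both lists. Heat shock proteins, the chaperones induced by stress, summed to 549, 591, 1109.8 and 2272 TPM in ORC4 and 1194, 1512, 1283, 1269 and 1182 TPM in wild type. The part of these differences among libraries in the results for cuticle genes was not tested.

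**Figure D5:**
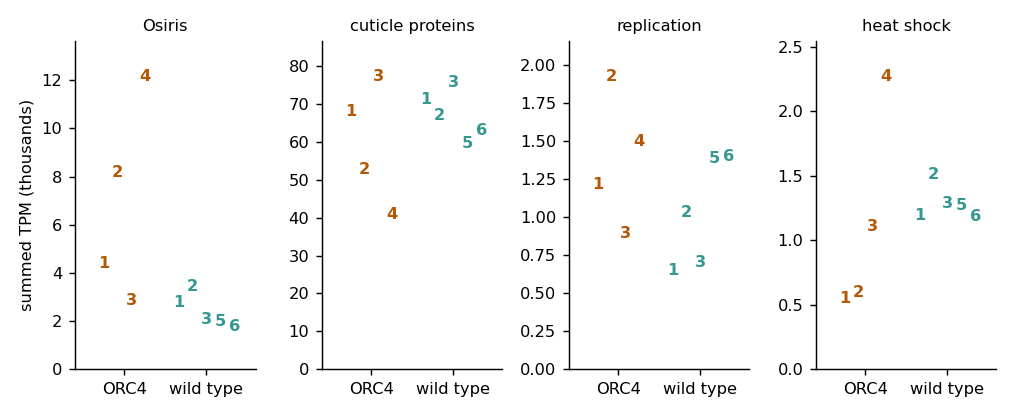
Summed TPM, in units of 1000 TPM (vertical axes, from 0), of 4 gene lists, with each library drawn as its replicate number, ORC4 in orange at the left and wild type in green at the right of each panel. ORC4 replicates 2 and 4 are the highest for Osiris and the lowest for cuticle proteins, and ORC4 replicate 4 is the highest for heat shock proteins.

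Of 16 tested heat shock genes 3 were lower and 1 higher, against 17.2% and 15.5% of all genes. Without ORC4 replicate 4, 6 were lower. Hsp67Bc, a small heat shock protein, was at 3.16, 2.59, 2.13 and 5.34 TPM in ORC4 libraries, against 114, 126, 114, 99.8 and 106 TPM in wild type, log2 fold change -5.15 (SE 0.29, edgeR adjusted p = 2.87e-08), with every ORC4 library below every wild-type one. Hsp70Ba, at 0, 0, 0 and 0.584 TPM in ORC4 libraries, against 3.27, 7.001, 6.69, 8.87 and 5.55 TPM in wild type (-5.53), belongs to a family of near-identical copies, and its counts could be split among them.

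Muscle, blood and heart genes gave mostly small differences. For comparison, 17.2% of all tested genes were lower and 15.5% higher. Of 22 sarcomere genes 6 were lower and none higher, and the count was 2 or 3 without ORC4 replicate 2, ORC4 replicate 4, wild-type replicate 1 or wild-type replicate 3, and against wild-type replicates 1 to 3. TpnC47D, a troponin C, was at 743, 613, 776 and 649.8 TPM in ORC4 libraries, against 863, 920.4, 976, 879 and 884 TPM in wild type (-0.44). In the fusion list kirre, of muscle founder cells, was lower (-0.40); it overlaps w and other genes. Of 17 blood cell genes 2 were lower and 2 higher. The lower count was 1 without ORC4 replicate 1 or 2 and 3 without ORC4 replicate 4, and the higher count was 1 without ORC4 replicate 1, 3 or 4 or wild-type replicate 1, 3, 5 or 6. NimC1, a phagocytosis receptor, was lower at 9.46, 8.24, 9.07 and 7.78 TPM in ORC4 libraries, against 11.5, 13.2, 12.3, 13.5 and 11.2 TPM in wild type (-0.57). Pvr, a growth factor receptor, was higher (0.27). Heart and amnioserosa genes were lower for 5 of 13 and higher for none, and the lower count was 1 to 3 without ORC4 replicate 1 or 2 or wild-type replicate 1, 2, 3 or 6. Of the lower heart and amnioserosa genes 1 fell at least 2-fold, and the T-box factor H15 fell by less (-0.41). None of 5 salivary gland genes was called; sage, their bHLH factor, gave 8.08, 7.91, 7.26 and 9.79 TPM in ORC4 libraries, against 9.75, 8.95, 8.61, 6.53 and 5.78 TPM in wild type.

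No gene of positional identity along the body axis, the Hox genes, was called among 8 tested; abd-A was at 13.9, 13.04, 13.6 and 14.1 TPM in ORC4 libraries, against 15.97, 15.3, 13.7, 12.3 and 13.4 TPM in wild type (-0.11, SE 0.09). Segmentation genes were lower for 5 of 20 and higher for none, with kni at 8.38, 8.32, 9.21 and 9.14 TPM in ORC4 libraries, against 12.9, 13.2, 12.6, 10.5 and 11.2 TPM in wild type (-0.53). The signal wg fell too (-0.41), and 8 of the 20 were lower against wild-type replicates 1 to 3. The pair-rule gene prd was at 0.532, 0.581, 0.486 and 0.6199 TPM in ORC4 libraries, against 2.63, 5.49, 0.977, 0.902 and 1.08 TPM in wild type (-2.08). The steroid hormone enzyme spo was at 0.346, 0.189, 0.143 and 0.309 TPM in ORC4 libraries, against 1.71, 5.87, 1.01, 0 and 0.491 TPM in wild type (-3.00). Both are made in the early embryo and were named after their values were seen. In wild type aged 2 to 4 h, prd was at 79.6, 66.2 and 75.2 TPM and spo at 159.7, 186 and 164 TPM. Wild-type replicate 2 was the highest late library for both. Without it, prd gave -1.45 (edgeR adjusted p = 0.0147) and spo no longer passed the filter on low counts; spo also lost its call without ORC4 replicate 2 (adjusted p = 0.0505). The germ plasm RNAs osk (1.06, 1.97, 1.22 and 1.46 TPM in ORC4 libraries, against 1.998, 20.6, 2.14, 5.27 and 3.001 TPM in wild type, -2.26, overlapping asRNA:CR44020) and pgc (-2.15, overlapping T3dh) were also highest in wild-type replicate 2, and gave -1.17 and -1.61 without it, at adjusted p of 0.029 and 0.0251. Of 7 tested germ line genes 3 were lower and 1 was higher, and the higher call was lost without ORC4 replicate 2 or wild-type replicate 1, 2 or 3. Of 6 ecdysteroid synthesis genes 3 were lower. Ecdysone response genes were lower for 2 and higher for 2 of 13, shares close to those among all genes. Eip75B (-0.87, overlapping CG42393) was lower and Eip78C (0.78, overlapping CG43218) higher, both nuclear receptors.

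Factors that hold or release paused polymerase were higher where they changed. Of 8 tested, 4 were higher and none lower, against 15.5% higher among all genes. Spt5 was at 67.9, 93.4, 58.6 and 86.5 TPM in ORC4 libraries, against 43.2, 46.9, 41.4, 54.3 and 57.1 TPM in wild type (0.59, SE 0.14). Nelf-E (overlapping CG43078), of the negative elongation factor, was at 25.2, 29.4, 20.7 and 29.5 TPM in ORC4 libraries, against 17.52, 18.1, 15.8, 17.8 and 19.5 TPM in wild type (0.50). The remaining calls were spt4 (overlapping CG33672), the partner of Spt5 (0.54), and Cdk9, the kinase of release (0.49). Against wild-type replicates 1 to 3, 6 of the 8 were higher; against replicates 5 and 6 none was, and without ORC4 replicate 2 the count was 2, Spt5 and Nelf-E. The call of Cdk9 was also lost without ORC4 replicate 4, wild-type replicate 1 or wild-type replicate 3, with adjusted p of 0.0552, 0.0634 and 0.0612. Chromatin remodelers were higher for 4 and lower for 1 of 15, against 15.5% and 17.2% of all genes. Bap170 (0.67) of the Brahma complexes and Mi-2 (0.41, overlapping Su(Tpl)) of the NuRD complex were among the higher ones. The higher count was 2 without ORC4 replicate 2, wild-type replicate 1 or wild-type replicate 3, and 7 against wild-type replicates 1 to 3. Of 18 Polycomb group genes 3 were higher and 3 lower, shares close to those among all genes. Among them escl (0.75, overlapping dgt2) and E(z) (0.42, overlapping CG34001) were higher and Pc (-0.65, overlapping CG7632) was lower. The lower count was 1 without ORC4 replicate 2 or 4 or wild-type replicate 1 or 2. Summed replication and cell cycle TPM, which is high in dividing cells, was 1209.8, 1921, 892 and 1496 in ORC4 libraries and 649, 1031, 696, 1384 and 1398 in wild type, highest in ORC4 replicate 2, and its part in these results was not tested. Of its 22 genes 4 were higher and 1 lower, RnrL, of nucleotide synthesis, being at 44.9, 65.5, 40.8 and 71.3 TPM in ORC4 libraries, against 23.9, 31.8, 16.5, 18.1 and 16.9 TPM in wild type (1.31). Mcm7 (overlapping asRNA:CR45871), of the replicative helicase, was at 84.2, 147, 64.96 and 108 TPM in ORC4 libraries, against 28.8, 49.4, 35.3, 70.1 and 61.3 TPM in wild type (0.98). The higher count was 1 without ORC4 replicate 2 and 2 without wild-type replicate 1, 2 or 3; Mcm7 did not pass without ORC4 replicate 2 (adjusted p = 0.0771).

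Ribosome and proteasome genes gave mostly small differences. In both ribosomal lists the share lower was below the 17.2% lower among all genes. Of 87 cytosolic ribosomal protein genes 12 were lower and 2 higher, with a median of -0.09; RpS5b, a paralogue of RpS5a, was higher (1.05), and RpL41 (-0.34, overlapping NaCP60E) and RpL24-like (-0.31, overlapping Dtd) were lower. Of 71 mitochondrial ribosomal protein genes 9 were lower and 3 higher, and 5 were lower without ORC4 replicate 2. Among them were mRpS31 (overlapping mib1), lower at 44.6, 42.8, 43.2 and 56.6 TPM in ORC4 libraries, against 107, 102, 103, 93.1 and 91.2 TPM in wild type (-1.16). The gene mRpL48 (overlapping frtz) was higher, at 105, 101, 112 and 101 TPM in ORC4 libraries, against 55.004, 52.5, 59.5, 43.99 and 49.3 TPM in wild type (0.95). Proteasome genes were higher for 5 of 32, a share close to the 15.5% among all genes, and lower for none, with Prosalpha4 (0.36), Rpn8 (0.30, overlapping Slik) and Rpt5 (0.29, overlapping Hrd3). Odorant-binding proteins, small secreted carriers, were lower for 6 and higher for 5 of 24 tested, with Obp56a (-2.19), Obp49a (-1.14) and Obp44a (-1.10, overlapping Pabp2) lower and Obp46a higher. Of 9 Methuselah-like receptors 2 were lower, mthl4 (-1.05) and mthl3 (-0.73), and 1 was higher, mthl8. Septate junction genes, which seal epithelia, were lower for 5 and higher for 5 of 23, against 17.2% and 15.5% of all genes. Against wild-type replicates 1 to 3, 3 were higher. Gli, the one of the list's 4 leading members that overlaps no gene, was at 67.5, 68.1, 67.1 and 75.1 TPM in ORC4 libraries, against 48.4, 54.9, 49.99, 47.8 and 46.3 TPM in wild type (0.43).

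Of the lists not yet described, tracheal regulators were lower for 1 of 7, epidermal and denticle genes higher for 2 of 6, and antimicrobial peptides lower for 1 of 4, and the epidermal count was 1 without ORC4 replicate 2 or 4 or wild-type replicate 3, and the antimicrobial count 0 without wild-type replicate 2, 3 or 5.

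Several lists above had no call in a direction by edgeR, and most of these also had none at an unadjusted p under 0.05 in that direction. The exceptions, with 1 member each, were Hox, proteasome and epidermal and denticle genes on the lower side and peptidoglycan recognition proteins, nicotinic receptors, neural precursor factors, sarcomere, heart and salivary gland genes on the higher side. DESeq2 called 1 sarcomere gene higher and otherwise none in these lists and directions, and limma called 1 peptidoglycan recognition protein, 1 nicotinic receptor and 1 sarcomere gene higher and otherwise none.

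Several of the largest differences lay outside these lists. Among genes that overlap no other, the 10 lower genes of greatest log2 fold change that were also called against wild-type replicates 1 to 3 were CG3473, CG34105, CG32819, CG12491, Nplp4, retinin and the proteases Jon99Fi, Jon25Bii, Jon99Fii and Jon25Bi. CG3473 (2L:14563015-14563726) had no count in ORC4 and 53.8, 57.9, 48.04, 40.8 and 48.3 TPM in wild type, at least 104-fold lower. CG34105 (2R:23749318-23749891) was at 0, 0, 0.213 and 0 TPM in ORC4 libraries, against 209.7, 97.7, 140.3, 124 and 255 TPM in wild type, a ratio of wild type to ORC4 of 2917 (95% counting interval 524 to 115207). Retinin, a protein known from the corneal lens, was at 0.236, 0.388, 0.122 and 0.261 TPM in ORC4 libraries, against 149.9, 151, 163, 148 and 119.7 TPM in wild type, log2 fold change -9.14 (SE 0.24, edgeR adjusted p = 4.35e-11). CG32819 and CG12491 rounded to no count in any ORC4 library and were at least 70.02-fold and 38.3-fold lower. In wild type CG32819 was at 4.15, 2.29, 4.52, 5.71 and 11.9 TPM, and CG12491 at 52.4, 13.1, 22.6, 35.99 and 2.37e-04 TPM. The last wild-type library of CG12491 was thus also near 0. Counts were fractional in 5 of the 9 libraries for CG32819 and in 4 for CG34105 and CG12491, so their reads may be shared with other genes.

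The 10 higher genes were polyph, mthl8, sordd2, Obp46a, CG42329, CG12896, CG12224, Kebab, LManIV and lncRNA:CR44603. The transporter-like gene polyph (FBgn0033572, 2R:10903570-10905563) was at 34.1, 33.9, 33.3 and 50.6 TPM in ORC4 libraries and had no count in wild type, at least 101-fold higher. The receptor gene mthl8 was at 18.7, 20.9, 19.3 and 23.6 TPM in ORC4 libraries, against 0, 0, 0.0184, 0 and 0 TPM in wild type, a ratio of ORC4 to wild type of 3658 (95% counting interval 656 to 144469). CG12896 was the most abundant of the 10 at 1636, 1649.9, 1969 and 2112 TPM in ORC4 libraries, against 37.2, 47.5, 56.3, 54.4 and 108 TPM in wild type, log2 fold change 4.87 (SE 0.34, edgeR adjusted p = 2.46e-07). Obp46a was at 41.9, 42.3, 37.7 and 47.8 TPM in ORC4 libraries, against 0.602, 0.1203, 0.726, 0.992 and 0 TPM in wild type (6.31). The gene sordd2 was at 19.6, 23.8, 21.3 and 29.6 TPM in ORC4 libraries, against 0, 0.0932, 0, 0.235 and 0.649 TPM in wild type (7.69). The others had log2 fold changes of 5.63 for CG42329, 4.69 for CG12224, 3.77 for Kebab, a microtubule-associated protein, 3.64 for LManIV, a lysosomal mannosidase, and 3.49 for lncRNA:CR44603. In all 10 the lowest ORC4 library lay above the highest wild-type one. Counts were fractional in 9 of the 9 libraries for CG42329, 8 for CG12896, 7 for sordd2 and 4 for CG12224. Reads of these genes may be shared with other genes, so their levels are less certain.

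Among genes that overlap another, which are uncertain, the leading lower genes were CG17029, asRNA:CR45995, w, Muc96D and CG6295, a lipase gene nested in RYa-R, and the leading higher genes were CG17786, p24-2, CG32266, CG18853 and asRNA:CR43787. The eye colour gene w (white; X:2790599-2796466), an ABC transporter and the usual marker of laboratory stocks, had no count in any ORC4 library and 7.94, 7.63, 7.64, 7.06 and 9.15 TPM in wild type, at least 181-fold lower. It lies in the span of kirre, and the summed level of both genes was 43.8 ± 2.08 CPM (counts scaled to library size, mean ± SD over libraries) in ORC4 and 76.4 ± 5.06 CPM in wild type. For CG17029, with no count in ORC4 and at least 367-fold lower, the sum with its host brm was 287 ± 70.1 CPM in ORC4 and 275 ± 36.7 CPM in wild type, a difference within the spread of either group. CG17029 alone was at 40.3 CPM in wild type, below the ORC4 SD, so the sum does not resolve a change of that size. For CG32266, at 766, 698, 1031 and 459.6 TPM in ORC4 libraries, against 0, 0, 0, 4.87 and 0 TPM in wild type, the sum with its host CG32264 was 374 ± 56.9 CPM in ORC4 and 199 ± 16.7 CPM in wild type. For CG17786, which had no count in wild type and 14.7, 38.1, 2.09 and 61.9 TPM in ORC4, the sum with its host twin was 169.6 ± 53.5 CPM in ORC4 and 247 ± 39.97 CPM in wild type, so the higher gene lies in a lower sum. For p24-2 and Unc-115b the sum was 278 ± 33.7 CPM in ORC4 and 143 ± 12.3 CPM in wild type.

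Calls in both directions were found on every chromosome arm. The share of tested genes lower in ORC4 was 14.1% on X, 19% on 2L, 18.6% on 2R, 18.1% on 3L and 16.2% on 3R, and the share higher was 12.2%, 15.6%, 14.5%, 15.6% and 17.9% on the same arms. On chromosome 4, 18.7% of 91 tested genes were lower and 19.8% higher. Of these 91, 9 were at least 4-fold lower (9.89%, against 3.18% of all tested genes). Within 500 kb of lola, 15.2% of 99 tested genes were lower and 16.2% higher. There, 4 were at least 4-fold higher (4.04%, against 1.31% of all tested genes) and 2 at least 4-fold lower (2.02%). Within 1000 kb, 22.6% of 234 tested genes were lower and 13.2% higher. At least 4-fold lower were 5.98% of them, against 3.16% on 2R beyond 1000 kb, and at least 4-fold higher 1.71%, against 1.33%. Of the 10 leading higher genes, CG12896 lies 53.98 kb from lola, Obp46a 169.9 kb and polyph 360.3 kb. The ORC4 line and the OregonR strain can differ at sites other than lola, on 2R and on other chromosomes. The labels do not say how the lines were matched. Allele and strain background, linked to lola or not, therefore cannot be told apart in this comparison.

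The ORE50/ORC4 libraries, which carry ORC4 opposite another lola allele, were compared with the same wild-type libraries in the series, and no difference between the mutants was tested. Summed Jonah and trypsin TPM was 571, 534, 719.7 and 626 in them, lysozymes 0, 2.06, 0 and 2.14 TPM, and glycolysis 1456, 1582, 1448 and 1493 TPM, against wild-type sums of at least 2311, 191 and 3437 TPM. Tpi was at 16.7, 29.9, 20.5 and 16.9 TPM, nSyb at 22.6, 33.03, 29.1 and 28.3 TPM, and Hsp67Bc at 1.53, 4.47, 1.13 and 0.743 TPM. Among genes with no count in ORC4 or in wild type, w was at 1.77, 0.903, 0.568 and 1.27 TPM, CG3473 at 0.335, 0, 0 and 0 TPM and polyph at 83.4, 74.04, 59.8 and 68.8 TPM in ORE50/ORC4. Cyp9c1 was at 52.9, 44.3, 63.3 and 61.1 TPM, ry at 29.4, 39.3, 28.7 and 39.5 TPM and CG12896 at 979, 1399, 2053 and 889 TPM. Not all genes went with ORC4. In ORE50/ORC4, CG32819 was at 0, 2.67, 6.38 and 2.03 TPM and asRNA:CR45995 at 1.74e-04, 28.4, 47.3 and 36.3 TPM. Both rounded to no count in ORC4. Kebab was at 0.509, 0.671, 0.847 and 0.248 TPM, against at least 6.88 TPM in ORC4. Summed TPM there was 268, 290, 210 and 238 for polymerase pausing and release and 358, 396, 229 and 260 for replication and cell cycle. The lowest ORC4 sums were 322 and 892 TPM.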

How the data were processed

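Polyadenylated RNA of whole embryos was selected with oligo(dT) and sequenced, per the labels' protocols; CASAVA 1.8.2, kallisto (version not given in the sources used here) and the build dm6 are named per the submitters' processing notes. The authors deposited for each library a table of 17753 genes with estimated counts and with TPM per listed gene length. Gene names and spans came from an Ensembl annotation of the BDGP6 assembly, which matched 99.3% of the genes; 47.6% of matched genes overlap another gene. The estimated counts, rounded to integers, entered edgeR 4.0.16 in R 4.3.3 (TMM scaling, filterByExpr with a minimum count of 10, quasi-likelihood test), with the 13 libraries of the late embryo in one fit so that they share an estimate of spread, and the contrast of 4 ORC4 minus 5 wild-type libraries. A gene was called at a Benjamini-Hochberg adjusted p under 0.05 over all tested genes. SE is the absolute log2 fold change divided by the square root of the F statistic of that test. Fold changes of genes with no count in a group are bounds at 3 counts per library, and intervals at 1 to 3 counts are exact and cover counting error only. The test was checked on simulated counts with independent genes and the same dispersion (spread between replicates) for every gene. Differences shared by whole gene groups within a genotype, as among the ORC4 libraries, were not simulated.

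Named genes were lola, the 10 lower and 10 higher genes of largest fold change with no overlap, 5 of each with overlap (at least 100 counts in the higher group, libraries fully separated, called against wild-type replicates 1 to 3), and up to 4 called members of each list; list members whose call ended when a single library was left out were mostly left to the counts. The comparison, its lists and the genes outside the rule were chosen with earlier results of these data known. Alternatives were DESeq2 1.42.0, limma 3.58.1 on log-scaled TPM with a pseudocount of 0.1 or 1, other scaling, filters, thresholds and subsets of libraries. Replicates of a group differed by more than sampling noise, so none was merged. The wild-type replicates carry the numbers 1, 2, 3, 5 and 6 of their titles, while another label field numbers them 1 to 5.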

Additional observations from a re-analysis of the deposited data

Results flagged for a closer look

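Of 332 groups of libraries checked over the genes named in the text, 28 held a library that stood apart from the rest of its group by Dixon's criterion, of which chance alone gives about 1 in 20; the criterion was applied to TPM.

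ORC4 replicate 4 stood apart for 13 genes. It was the highest ORC4 library for GATAe at 29.6 TPM (the others 23.7 to 24.4), Fas3 at 23.3 (the others at least 16.4), Gli at 75.1 (67.1 to 68.1), mRpS31 at 56.6 (42.8 to 44.6), polyph at 50.6 (33.3 to 34.1), yellow-h at 5.85 (4.23 to 4.42), Ca-alpha1D at 7.77 (7.24 to 7.32), Pc at 5.64 (4.79 to 4.89), Lsd-1 at 11.1 (8.51 to 8.9), GstD5 at 11.4 (2.9 to 4.3), Muc14A at 0.733 (0.482 to 0.524) and Hsp70Ba at 0.584 (0 in the others). For Tpi it was the lowest, at 31.8 TPM against 36 to 36.8. ORC4 replicate 3 was the highest of its group for Pgi at 107 TPM (87.9 to 91) and for cac at 4.98 TPM (4.49 to 4.54).

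Wild-type replicate 2 was highest for osk at 20.6 TPM (2 to 5.27), dpn at 4.61 (2.67 to 3.06) and CG42329 at 1.77 (0.0645 to 0.269), and lowest for fru at 0.269 (0.42 to 0.445), Dh44 at 2.98 (4.21 to 4.61) and Pglym78 at 305 (335 to 342). Wild-type replicate 1 was highest for the gut and peptide genes Jon25Bi at 317 TPM (111 to 158), Peritrophin-15a at 195 (41.1 to 72.6) and Nplp4 at 208 (20.7 to 65.9). Wild-type replicate 6 was highest for CG12896 at 108 TPM (37.2 to 56.3), NLaz at 12.9 (8.76 to 9.55) and asRNA:CR43787 at 0.953 (0 to 0.000384), and replicate 5 for CG32266 at 4.87 (0 in the others).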

How the results depend on the processing

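The genes lower in ORC4 numbered 1966 and kept within 1.5 times that count under every alternative fit of the whole table, from 1374 against wild-type replicates 5 and 6 to 2114 by DESeq2, except at an adjusted p under 0.01, where 1257 were lower and 855 higher. The 1768 higher genes came to 1004 when compared with wild-type replicates 5 and 6 alone, which have less depth, and otherwise between 1517 and 2021 where no single library was left out. Leaving out a single library gave 1553 to 2043 lower and 1099 to 1897 higher genes. The estimate for lola was -0.0027 against wild-type replicates 5 and 6 and 0.032 to 0.26 when 1 library was left out, and it passed no test.

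The 173 other named genes gave 3615 values over 21 alternatives, of which 3478 kept direction and side of the threshold, 109 lost the call, 7 gained it and 21 changed sign. The sign changes concern 5 genes that were not called: apolpp (-0.083 with the replicate block and -0.082 on the same libraries without it), lambdaTry (0.0498 and 0.056), para (-0.0082 and -0.0076, and -0.11 against wild-type replicates 1 to 3), sage (0.078 and 0.068 by limma with either pseudocount, 0.32 against wild-type replicates 5 and 6) and ERR. When 1 library was left out, apolpp ranged from -0.028 to 0.24, lambdaTry from -0.22 to 0.068, para from -0.028 to 0.13, sage from -0.10 to 0.043 and ERR from -0.047 to 0.048.

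Same-numbered ORC4 and wild-type libraries 1, 2 and 3 deviated together with correlations of 0.0296, 0.273 and 0.163. So few values cannot settle whether libraries are paired by replicate number, and the main fit did not pair them. A fit with that number as replicate block called 1887 lower and 1913 higher genes, and the same libraries gave 1601 and 1517 without it. CG12491, Mal-B2 and spo did not pass the filter on low counts in several subsets of libraries and have no value there. Low genes are least precise in the shallow wild-type replicates 5 and 6.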
